A study of Mus musculus with 8 samples.

Results

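The ethanol response of wild-type (WT) mouse hepatocytes was read from 4 of the 8 arrays of the series, 2 arrays of cells kept without ethanol and 2 of cells given 100 mM ethanol. These arrays were chosen by their titles, and all probe sets other than the array maker's controls were compared. All cells were primary hepatocytes, which are freshly isolated liver cells held in short-term culture, from mice of the strain C57BL6/129SVJ, and both groups were incubated for 15 h. The other 4 arrays held hepatocytes of mice lacking transglutaminase 2 (KO), without and with 100 mM ethanol for the same time, and are used here for a shared estimate of the spread and in 1 comparison. The study's title concerns transglutaminase 2 and its crosslinking of the transcription factor Sp1 in liver injury. The age and sex of the mice, the number of animals behind each culture and what the array letters A and B share are not given in the labels. The spread between the 2 arrays of a group may therefore be technical, and each p-value sets a difference against such spread alone. That spread is pooled over the 4 groups, KO included, and drawn towards that of probe sets of like intensity.

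Hepatocytes oxidise ethanol to acetaldehyde with alcohol dehydrogenases and with the cytochrome P450 enzyme CYP2E1, and acetaldehyde to acetate with aldehyde dehydrogenases. These oxidations consume NAD+ and raise NADH, and they draw on oxygen. Hepatocytes also make glucose, bile acids and most plasma proteins, and they gradually lose these specialised functions in culture while genes of the cytoskeleton and of wound repair become active.

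Each array gave 1 fluorescence intensity per probe set, a group of short probes against 1 transcript, and the intensities were scaled by quantile normalisation, which gives every array the same distribution. Arrays do not report a number of reads, so precision is limited by having 2 arrays a group. WT arrays correlated with each other at 0.975 to 0.987 across probe sets. Ethanol array B had 5410 unusable values, of which 5403 were exact zeros and 7 were impossible as intensities. Probe sets with an unusable value were left out, which removed 12% of those on the array. The treatment text of this array reads as an untreated incubation, although its title and source name give 100 mM ethanol. It correlated at 0.986 with ethanol array A and at 0.982 with untreated array B. Tgm2, the gene deleted in the KO mice, had intensities of 16656 and 16836 without ethanol and 16836 and 16836 with it in WT (arrays A and B in this order throughout) and of 378 and 368 without ethanol and 704 and 628 with it in KO, which matches the genotype labels. The WT values stand at the top of the scale, where quantile normalisation gives different arrays the same number.

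All 13 measured markers of hepatocytes were well above the dimmest level tested. Albumin (Alb) read 14057 and 14057 without ethanol and 13399 and 13840 with it, and the summed intensity of the 13 markers was 113178 and 115868 without ethanol and 117716 and 118121 with it. None of 8 lymphocyte and NK cell markers reached the tested range (0 of 8), and 7 of 18 stellate cell and fibroblast markers, among them Col1a1 and Pdgfrb, lay below an intensity of 26.2, the lowest mean that was tested, on all 4 arrays. Of 18 Kupffer cell and macrophage markers, 15 passed that level, and the list summed to 5626 and 5991 without ethanol and 7552 and 7728 with it. Most of that sum was Cd14, the co-receptor for bacterial lipopolysaccharide, at 3831 and 4082 without ethanol and 5569 and 5758 with it, a rise of 0.52 ± 0.065 (adjusted p = 0.0022). Clec4f, a Kupffer cell marker, was at 91.1 and 85.3 against 83.7 and 64.4. Adgre1, a macrophage marker, was at 108 and 134 against 127 and 99.4. Cholangiocyte markers summed to 470 and 446 against 382 and 323, and sinusoidal endothelial markers to 1237 and 1150 against 1368 and 1326. In such bulk samples fewer cells of a type and less RNA per cell cannot be told apart.

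Ethanol changed 517 of 10741 genes (4.81%) in WT hepatocytes, 247 upward (2.3%) and 270 downward (2.51%), when each gene was read from its brightest probe set. These shares of all genes are the background for every count of list members below. The changes were mostly modest. Their median size was 0.52 on the log2 scale, 253 of the 517 fell between 0.5 and 1, and 32 reached 1, a doubling or halving. Among those 32 genes 12 rose and 20 fell. A change was called where limma's moderated test gave a Benjamini-Hochberg adjusted p under 0.05 over all 19814 probe sets tested. Every called gene moved the same way between the A arrays and between the B arrays, and its ethanol arrays lay wholly above or wholly below its untreated arrays. That last property alone is no mark of a change, since 54% of all tested genes and 53.1% of all tested probe sets had it. The median difference of all tested genes was 0.048, and it was -0.053 when probe sets with a missing value were kept in the normalisation, which left 70 genes called higher and 303 called lower.

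Leaving out 1 of the 4 WT arrays left 117 to 141 genes called, leaving out an untreated KO array left 239 or 240, and leaving out an ethanol KO array gave 1089 or 1084. Called in every one of these 8 fits were 84 genes, 33 higher and 51 lower with ethanol, which are described below as lasting through every omission. Counting the B ethanol arrays as untreated, as their treatment text reads, left 0 genes called by limma and 280 genes at an unadjusted p under 0.05.

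**Figure D1:**
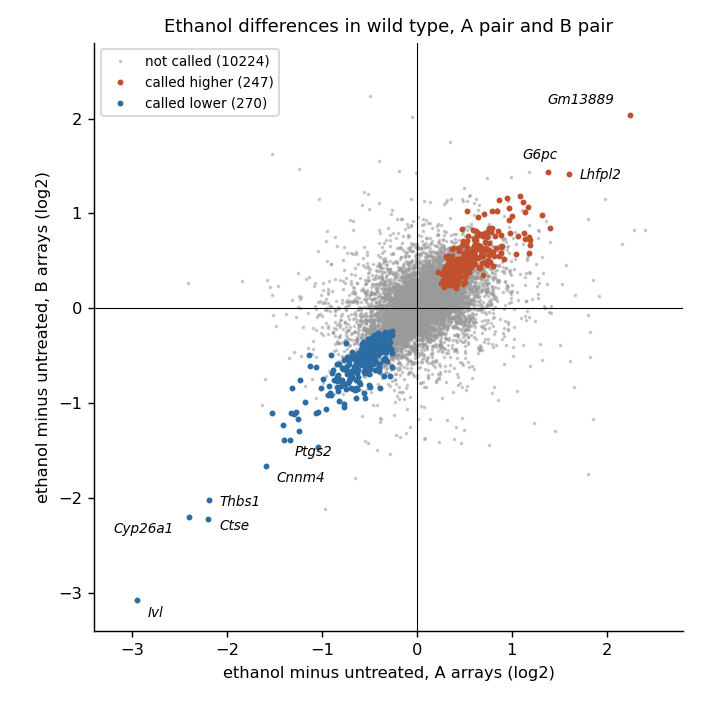
Ethanol minus untreated log2 difference between the WT A arrays (horizontal axis) and between the WT B arrays (vertical axis) for the 10741 tested genes, each read from its brightest probe set. The 247 genes called higher and the 270 called lower lie in the quadrants where both pairs move the same way, with Ivl at the lower left and Gm13889 at the upper right.

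Ivl, Cyp26a1, Thbs1 and, on 1 of its 2 probe sets, Ctse fell at least 4-fold. Ivl encodes involucrin, a substrate that transglutaminases crosslink into the envelope of stratified epithelia. Its intensity was 1101 and 1093 without ethanol and 128 and 115 with it. Both Ivl probe sets were called lower, the brightest with a change of -3.02, while the other read 163 and 175 without ethanol and 1.78 and 5.94 with it, ethanol values below the tested range. Thbs1, the secreted glycoprotein thrombospondin 1, read 594 and 610.3 without ethanol and 117 and 138 with it, and both of its probe sets were called lower. The LIM-domain protein gene Lmcd1, which was bright, read 2548 and 2373 without ethanol and 948 and 1004 with it. For each of these 3 genes the pair of arrays within a group differed far less than the groups did.

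Several of the next-ranked decreases were in genes of secreted or signalling proteins. F3, tissue factor, which starts the extrinsic pathway of coagulation, read 1197 and 1074 without ethanol and 492 and 471 with it. It fell by 1.21 ± 0.12 (adjusted p = 0.0009). Pgf, placental growth factor, read 666 and 692 without ethanol and 336 and 324 with it, and Csf3, the granulocyte colony-stimulating factor, read 33.1 and 35.5 without ethanol and 4.86 and 14.4 with it, where the ethanol values lie below the tested range. Sprr1b, a small proline-rich protein that is another envelope substrate, read 183 and 152 without ethanol and 65.1 and 61.8 with it, and it and Ivl were the 2 called of 8 tested transglutaminase and envelope genes. All 4 genes were lower on both ethanol arrays than on both untreated ones, as every gene called lower was. Such a separation was found in 54% of all tested genes. Plod2, a lysyl hydroxylase that modifies collagen, read 138 and 168 without ethanol and 45.2 and 69.7 with it, and its other probe set was also called lower (-1.16).

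Several of the larger decreases were in intracellular genes. Gsdme, the pore-forming gasdermin E, fell by 1.19 ± 0.11 (adjusted p = 0.00048), from intensities of 373 and 341 to 144 and 151. A dimmer Gsdme probe set had 0.42 (adjusted p = 0.41) and was not called. Plk2, a stress-responsive polo-like kinase, fell by 1.07 ± 0.087 (adjusted p = 0.00033), from 2607 and 2564 to 1254 and 1195. Ipo7, a nuclear import receptor, read 3488 and 3442 without ethanol and 1836 and 1841 with it, and fell by 0.91 ± 0.063 (adjusted p = 0.00016). Fermt2, which encodes the integrin activator kindlin-2, read 3684 and 3380 without ethanol and 1961 and 1788 with it and fell on both tested probe sets. Ndufa4l2, a mitochondrial protein induced by low oxygen, changed by -1.25 ± 0.13, the RNA helicase Aqr by -0.93 ± 0.13, the glycosyltransferase Ugt3a2 by -0.93 ± 0.11, Cep170, a centrosomal protein, by -1.08 ± 0.15, and kappa-casein Csn3 by -1.08 ± 0.21. Of the 25 genes with the largest decreases, 18 lasted through every omission. Plod2, Sprr1b, Csn3, Nol9, Pgf, Csf3 and Ptgs2 did not.

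**Figure D2:**
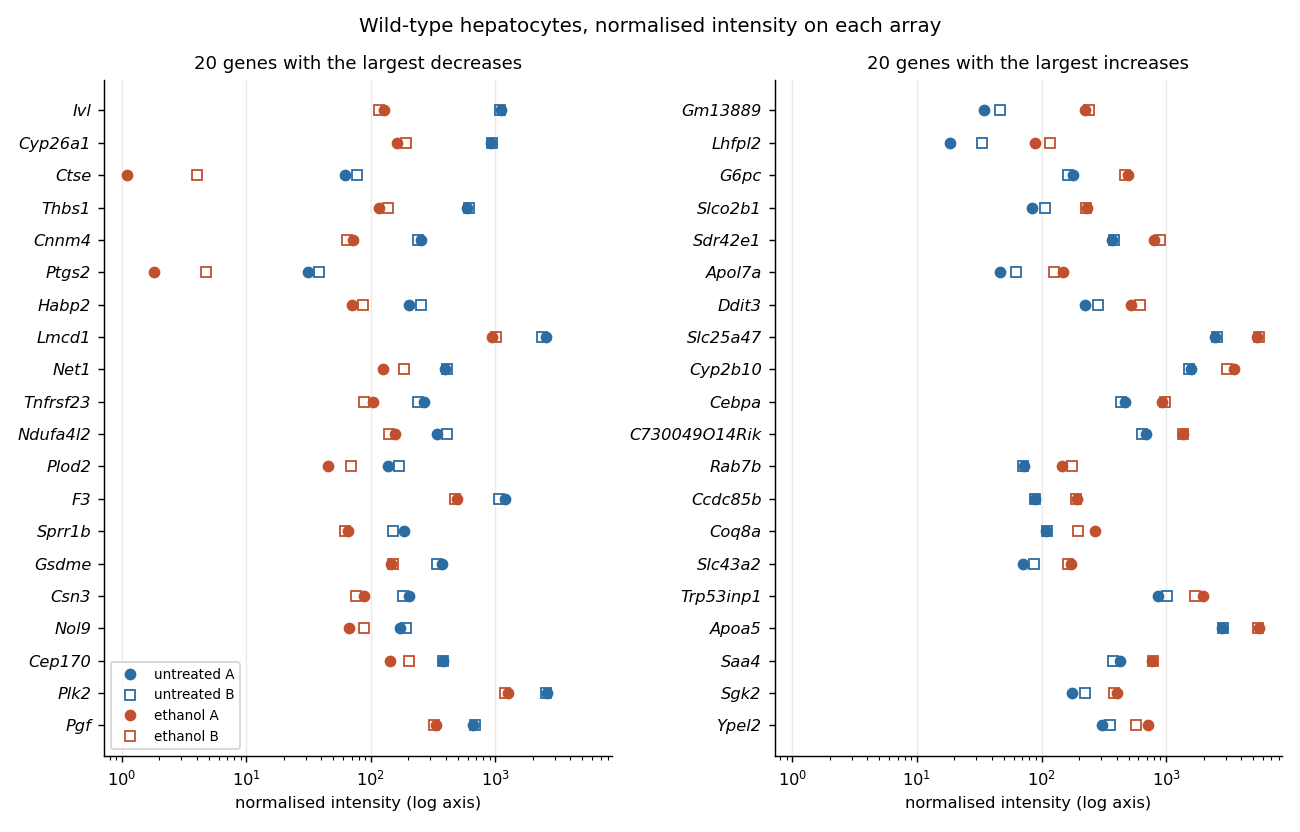
Normalised intensity (log axis) on each of the 4 WT arrays for the 20 genes with the largest called decreases (left) and the 20 with the largest called increases (right), with filled circles for A and open squares for B. In each row the ethanol symbols lie wholly to one side of the untreated symbols, as for every called gene. Ctse and Ptgs2 reach ethanol intensities of 1.1 to 4.8, at the bottom of the scale.

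Fewer increases than decreases reached 2-fold (12 against 20), and the larger increases included genes of glucose release, lipoproteins and transport. Gm13889, a predicted gene of no assigned role, showed the largest, from 34.5 and 46 to 224 and 239. G6pc, the catalytic subunit of glucose-6-phosphatase, which releases free glucose from the liver, read 180 and 163 without ethanol and 493 and 470.1 with it. Apoa5, an apolipoprotein that promotes the clearance of triglyceride, read 2829 and 2864 without ethanol and 5562 and 5476 with it, and rose by 0.95 ± 0.072 (adjusted p = 0.00022). The ethanol arrays of all 3 genes stood clear of the untreated arrays, as for every called gene and 54% of all tested genes.

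The next-ranked increases included several membrane proteins. Slc25a47, a mitochondrial carrier found mainly in liver, read 2482 and 2567 without ethanol and 5388 and 5607 with it. Gjb2, the gap junction protein connexin 26, rose by 0.85 ± 0.1 (adjusted p = 0.0018), from 1841 and 1650 to 3024 and 3303. Slco2b1, an uptake transporter for organic anions, rose by 1.15 ± 0.15, the amino acid transporter Slc43a2 by 0.96 ± 0.2, and Gfra1, a receptor subunit for glial cell-derived neurotrophic factor, by 0.88 ± 0.21. Saa4, the constitutive serum amyloid A, read 423 and 374 without ethanol and 773 and 779 with it. A dimmer Saa4 probe set went the other way and was not called (-0.71, adjusted p = 0.15). Cpn2, the regulatory subunit of carboxypeptidase N, rose by 0.90 ± 0.17, Angptl6, an angiopoietin-like secreted factor, by 0.89 ± 0.17, and Coq8a, which is needed for coenzyme Q synthesis, by 0.97 ± 0.2. Rab7b, a small GTPase of endosomal transport, rose from 72.7 and 70.5 to 146 and 174, and Trp53inp1, a p53-induced protein, rose by 0.95 ± 0.22. Of the 25 genes with the largest increases 10 lasted through every omission, among them Gm13889, Sdr42e1, Slc25a47, Apoa5, Saa4 and Gjb2. G6pc, with an SE of 0.21, did not.

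Cyp26a1 encodes the enzyme that hydroxylates all-trans retinoic acid, the active form of vitamin A, and so clears it. Retinoic acid itself induces the gene through receptors that bind repeats of a short half-site in its promoter. The 250 bases before the Cyp26a1 start in RefSeq's GRCm38.p6 promoter table are shown because this gene had the second largest decrease; capitals mark a direct repeat with 5 bases between (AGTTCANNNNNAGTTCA, searched on both strands), which lies 32 bases before the start on the reverse strand.
Cyp26a1, chr19:37697558-37697807, plus strand: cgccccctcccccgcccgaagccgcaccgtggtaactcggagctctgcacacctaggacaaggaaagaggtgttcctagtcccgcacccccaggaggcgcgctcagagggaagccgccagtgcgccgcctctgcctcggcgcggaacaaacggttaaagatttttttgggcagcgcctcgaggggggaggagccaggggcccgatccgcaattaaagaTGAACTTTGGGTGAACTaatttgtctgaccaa
These exact letters were present in 7 of 27025 genes (0.0259%) over the same window. Other spellings of the half-site were not searched, so repeats of such spellings are not counted. A match is a description of the letters only.

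Cyp26a1 read 922 and 939.6 without ethanol and 162 and 192 with it and fell by 2.30 ± 0.11 (adjusted p = 2.6e-05). Both ethanol arrays lay far below both untreated arrays. Of the 22 tested genes of retinoid metabolism and signalling, Cyp26a1 fell, Rdh7, a retinol dehydrogenase, rose by 0.33 ± 0.072 from 3217 and 3536 to 4276 and 4222, and 20 were not called. The list's median was 0.043, beside 0.048 for all genes. The retinoic acid receptor Rarb (-0.67, adjusted p = 0.32) and the retinol carrier Rbp4 (0.033, adjusted p = 0.84) were not called, and neither was Dhrs3 (-0.082, adjusted p = 0.84), which reduces retinal. Cyp26a1 lasted through every omission and Rdh7 did not.

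Several genes that cells induce in low oxygen, among them genes of glycolysis, were lower with ethanol. Of 32 tested members 9 fell, 0 rose, and the median was -0.22. The share called lower was 28.1%, beside 2.51% of all genes. The promoters of 3 of the genes that fell are shown for the last 160 bases before the start, with capitals on ACGTG, the core letters that hypoxia-inducible factors bind, on either strand.
Bnip3, chr7:138909507-138909666, minus strand: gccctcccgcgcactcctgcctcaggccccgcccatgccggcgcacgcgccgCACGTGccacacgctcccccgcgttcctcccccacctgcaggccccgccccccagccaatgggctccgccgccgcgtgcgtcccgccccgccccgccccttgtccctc
Pgam1, chr19:41911711-41911870, plus strand: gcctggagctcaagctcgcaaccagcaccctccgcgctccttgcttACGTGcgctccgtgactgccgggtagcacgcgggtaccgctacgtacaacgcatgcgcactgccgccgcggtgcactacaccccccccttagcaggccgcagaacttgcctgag
Hk2, chr6:82774455-82774614, minus strand: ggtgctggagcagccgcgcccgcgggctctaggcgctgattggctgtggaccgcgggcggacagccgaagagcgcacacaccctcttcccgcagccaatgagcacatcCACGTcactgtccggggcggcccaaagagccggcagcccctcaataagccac
In Bnip3 the core occurs on both strands and overlaps itself. The letters were found within 250 bases of the start in 18.5% of 27025 genes and in 22 of the 35 list members with a promoter entry. Among the genes called lower they were found in 6 of the 8 with an entry. The list was drawn up from known targets of these factors, so the match is no independent observation.

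Bnip3, a mitochondrial protein of mitophagy, read 4319 and 4381 without ethanol and 2763 and 2878 with it, and fell by 0.62 ± 0.071 (adjusted p = 0.0016). Hilpda, an inhibitor of lipid droplet breakdown, read 853 and 801 without ethanol and 486 and 462 with it, and fell by 0.78 ± 0.088 (adjusted p = 0.0015). For both genes the 4 arrays formed non-overlapping pairs, as for every called gene and 54% of all tested genes. Among enzymes of glycolysis, Pgam1, phosphoglycerate mutase, fell from 4802 and 4347 to 3383 and 3223, and Pkm, pyruvate kinase, fell from 1949 and 2032 to 1243 and 1365. The hexokinases Hk1 (-0.70) and Hk2 (-0.44) and the phosphofructokinase Pfkp (-0.78) fell as well, as did Vegfa (-0.74), a growth factor for blood vessels, and the stress-responsive Ndrg1 (-0.51).

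Other members of the same pathway did not pass the test. Lactate dehydrogenase Ldha had a difference of -0.21 (adjusted p = 0.053), the phosphoglycerate kinase gene Pgk1 -0.058 (adjusted p = 0.86), and Egln3, an oxygen-sensing hydroxylase, 0.058 (adjusted p = 0.80). The glucose transporter Slc2a1 had -0.18 (adjusted p = 0.28). In all, 28 of the 32 values lay below 0, and the median stayed between -0.31 and -0.19 under all alternatives run. Bnip3 and Hilpda lasted through every omission, and the other 7 did not.

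Genes that help fold and quality-check proteins in the endoplasmic reticulum (ER) were more often called higher than lower. The unfolded protein response raises such genes through ATF6, IRE1 and PERK, and ATF6 acts at a promoter element with the letters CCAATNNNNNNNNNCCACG. That element was found in 35 of 27025 genes (0.1295%) and in 9 of the 35 listed ER genes with a promoter entry. It was found in 4 of the 10 called members with an entry, shown here with the element in capitals.
Hspa5, chr2:34771930-34772089, plus strand: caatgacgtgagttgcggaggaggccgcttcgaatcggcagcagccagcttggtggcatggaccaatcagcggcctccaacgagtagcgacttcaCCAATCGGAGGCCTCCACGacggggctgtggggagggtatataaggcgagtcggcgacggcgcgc
Dnajc3, chr14:118937772-118937931, plus strand: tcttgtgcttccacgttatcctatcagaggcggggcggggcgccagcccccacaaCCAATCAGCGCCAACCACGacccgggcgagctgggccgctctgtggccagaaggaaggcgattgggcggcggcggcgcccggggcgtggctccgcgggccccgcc
Syvn1, chr19:6046416-6046575, plus strand: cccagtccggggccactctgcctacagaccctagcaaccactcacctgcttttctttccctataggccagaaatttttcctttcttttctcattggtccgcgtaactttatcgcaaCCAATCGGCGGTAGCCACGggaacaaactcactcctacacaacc
Pdia6, chr12:17266429-17266588, plus strand: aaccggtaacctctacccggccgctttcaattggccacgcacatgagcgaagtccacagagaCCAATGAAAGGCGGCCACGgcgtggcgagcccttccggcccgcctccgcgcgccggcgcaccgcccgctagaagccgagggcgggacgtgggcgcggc
The element lay 44 to 105 bases before the start in these 4 genes, always on the forward strand. It was also found in 4 tested members that were not called, Hsp90b1, Calr, Canx and Creld2. The list holds known targets of the unfolded protein response, so the match is no independent observation.

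Of 42 tested ER members, 9 rose and 2 fell, with a median of 0.18, beside 2.3% called higher and 2.51% called lower of all genes. Hyou1, a chaperone of the HSP70 family, rose by 0.77 ± 0.13 (adjusted p = 0.0094), from 418 and 334 to 608 and 697. Its dimmer probe set was not called (0.28, adjusted p = 0.63). Dnajc3, a co-chaperone that also inhibits PERK, read 1212 and 1259 without ethanol and 1552 and 1666 with it, and rose by 0.38 ± 0.078. Hspa5, the main ER chaperone BiP, rose by 0.25 ± 0.057. Sec63, part of the translocation channel, rose from 1034 and 1016 to 1393 and 1452. These increases were small. The dimmer probe sets of Dnajc3 (-0.52 to 0.18) and of Sec63 (-0.32 to 0.062) were not called, so each of these increases rests on 1 probe set. Degradation genes rose too, Herpud1 by 0.44 ± 0.097, the ubiquitin ligase Syvn1 by 0.44 ± 0.092 and Derl2 by 0.35 ± 0.075, although a Herpud1 probe set of nearly equal brightness had -0.10 (adjusted p = 0.74). The stress sensor Ern1 (0.38) and the disulfide isomerase Pdia6 (0.34) rose as well. The 2 members that fell, Sec24d (-0.59) and Sec31a (-0.35), are coat proteins of vesicles leaving the ER. Sec24d alone lasted through every omission. With missing values kept in the normalisation, the setting that lowers the median of all genes, 1 ER member was called higher and 3 lower.

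The integrated stress response, in which phosphorylated eIF2-alpha raises translation of ATF4 and its targets, had 4 of 38 tested members higher and 0 lower, with a median of 0.12. The share called higher was 10.5%, beside 2.3% of all genes, whose median was 0.048. Ddit3, the transcription factor CHOP, read 225 and 286 without ethanol and 527 and 618 with it, and rose by 1.12 ± 0.15 (adjusted p = 0.003). Atf5 read 1677 and 1784 without ethanol and 2759 and 2905 with it, and rose by 0.71 ± 0.074 (adjusted p = 0.0011). Both genes lasted through every omission. Herpud1, which is on this list too, and the glycine transporter Slc6a9 (990.1 and 1125 to 1393 and 1344) rose as well. Another Slc6a9 probe set went the other way and was not called (-0.16, adjusted p = 0.49). Cytosolic and mitochondrial heat shock genes had 2 of 22 higher (9.09%), Hsph1 (0.36) and Ahsa1 (0.31), and 0 lower. A dimmer Hsph1 probe set had -0.17 (adjusted p = 0.30) and was not called. Proteasome subunits had 2 of 32 higher (6.25%), Psmd13 (0.71) and Psmc3 (0.31), and 0 lower, and neither gene lasted through every omission.

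Among genes of the actin and tubulin cytoskeleton and the annexins calls were in the lower direction. Of 41 tested members 12 fell (29.3%, beside 2.51% of all genes), 0 rose, and the median was -0.25. Lgals1, the secreted lectin galectin-1, read 2637 and 2594 without ethanol and 1462 and 1561 with it, and fell by 0.79 ± 0.083 (adjusted p = 0.0011). Tpm4, a tropomyosin that coats actin filaments, read 2336 and 2524 without ethanol and 1599 and 1659 with it, and fell by 0.57 ± 0.072 (adjusted p = 0.0023). Tubb6, a beta-tubulin, read 6116 and 6145 without ethanol and 4404 and 4378 with it, and fell by 0.48 ± 0.061 (adjusted p = 0.0023). All 3 genes lasted through every omission. The crosslinkers Actn1 (-0.52) and Flna (-0.51), the actin regulators Vasp (-0.51) and Pfn1 (-0.40), the focal adhesion protein Zyx (-0.34), Tuba1a (-0.42), Tpm3 (-0.26) and the annexins Anxa3 (-0.43) and Anxa5 (-0.28) also fell. Actb, which encodes beta-actin, had a difference of -0.10 ± 0.09 (adjusted p = 0.64). The median of the list lay between -0.31 and -0.18 under all alternatives run.

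Targets of TGF-beta and YAP, matrix genes and integrins had 4 of 28 tested members lower and 1 higher, with a median of -0.22. The share called either way was 17.9%, beside 4.81% of all genes. Besides Thbs1, the matricellular Ccn2 read 7187 and 6950 without ethanol and 5091 and 4501 with it, and fell by 0.56 ± 0.078 (adjusted p = 0.0037). Ankrd1, a YAP target, read 777 and 754 without ethanol and 488 and 488 with it, and fell by 0.63 ± 0.092, and the integrin subunit Itgb1 fell by 0.58 ± 0.092. The receptor Tgfbr2 rose (0.44). The 9 stellate cell and fibroblast markers that were tested gave 0 calls and a median of -0.17, and their whole list summed to 926 and 779 without ethanol and 869 and 672 with it. Their part in these decreases was not tested. Thbs1 and Ccn2 lasted through every omission.

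In plasminogen activation, 2 of 14 tested genes fell (14.3%, beside 2.51% of all genes) and 0 rose. They were Plaur, the urokinase receptor, from 989 and 896 to 524 and 554, and the membrane metalloproteinase Adam9 (-0.33). Complement and coagulation genes had 2 of 36 lower, F3 and Habp2, a serine protease that can activate factor VII, and 1 higher, plasma prekallikrein Klkb1, from 145 and 182 to 258 and 333. The share called either way was 8.33%, beside 4.81% of all genes. Habp2 read 202 and 254 without ethanol and 70.4 and 86.9 with it on its brightest probe set. A dimmer Habp2 probe set had a difference of 0.62 (adjusted p = 0.29), so the decrease rests on 1 of the 2.

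Inflammatory genes moved in both directions. Of 34 tested NF-kB and chemokine genes 7 fell and 3 rose (29.4% called, beside 4.81% of all genes), and the median was -0.066. Ccl2, which attracts monocytes, read 1442 and 1457 without ethanol and 921 and 912 with it, and fell by 0.65 ± 0.063 (adjusted p = 0.00077). Cxcl2, which attracts neutrophils, read 249.8 and 249.5 without ethanol and 157 and 154 with it, and fell by 0.63 ± 0.12 (adjusted p = 0.017). These chemokines showed nearly equal arrays within each group. Cxcl1 (-0.54), the feedback inhibitor Tnfaip3 (-0.39), Csf2 (-0.87), Csf3 and the cyclooxygenase Ptgs2 fell too, the last from 31.2 and 38.4 to 1.83 and 4.8, where the ethanol values lie below the tested range. A second, dimmer Ptgs2 probe set was not called (0.19, adjusted p = 0.83), so the Ptgs2 decrease rests on 1 probe set. The adhesion molecule Icam1 (0.51), the NF-kB subunit Rela (0.29) and the NF-kB co-regulator Bcl3 (0.61) rose. Ccl2 lasted through every omission. The sign of the list's median depended on the settings, with medians from -0.18 to 0.038.

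Interferon-stimulated genes had 6 of 38 lower and 2 higher (21.1% called, beside 4.81% of all genes), with a median of 0.011. The decreases were in Stat2 (-0.66), Isg20 (-0.50), Oasl2 (-0.50), Oasl1 (-0.41), Usp18 (-0.37) and Irgm1 (-0.36). The antiviral gene Rsad2 rose from 3536 and 3531 to 4781 and 4837, and on 2 of its 3 tested probe sets, the third of which was not called (-0.20, adjusted p = 0.19). The peptide transporter Tap1 rose by 0.45 ± 0.091. Among acute phase genes Saa4 rose, Lcn2, a siderophore-binding protein, fell (-0.31), and 28 of 30 were not called. Egr1, an immediate early transcription factor, rose from 1367 and 1439 to 2121 and 2224, whereas Myc fell from 1357 and 1359 to 945 and 916, and Junb (-0.44) and the ERK phosphatase Dusp5 (-0.39) fell. The other 24 of 28 immediate early and ERK feedback genes were not called. Egr1, Myc and Rsad2 lasted through every omission.

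Several transcription factors that set up the hepatocyte programme were higher. Of 22 tested liver-enriched factors 5 rose (22.7%, beside 2.3% of all genes), 0 fell, and the median was 0.21. Cebpa, C/EBP-alpha, read 472 and 434 without ethanol and 924 and 989 with it, and rose by 1.05 ± 0.18 (adjusted p = 0.0095). Hnf4a, a nuclear receptor active in all hepatocytes, read 1146 and 1199 without ethanol and 1592 and 1651 with it, and rose by 0.46 ± 0.098 (adjusted p = 0.028), but its other probe sets differed, at -0.49 (adjusted p = 0.053), -0.51 (adjusted p = 0.29) and 0.17 (adjusted p = 0.79), none called. Creb3l3, a membrane-bound factor of fasting metabolism, read 2308 and 2318 without ethanol and 3883 and 3308 with it, and rose by 0.63 ± 0.09. For these factors both ethanol arrays exceeded both untreated ones, as for every gene called higher. A separation of the arrays was found in 54% of all tested genes. Foxa3 (0.56) and the nuclear receptor Nr5a2 (0.72) rose as well. The median of the list lay between 0.094 and 0.35 under all alternatives run, and Creb3l3 alone lasted through every omission.

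Genes of glucose release followed G6pc in part. Slc2a2, the glucose transporter of the hepatocyte membrane, rose from 1062 and 1181 to 1714 and 1831, and the other 21 of 23 tested members, among them Fbp1 (0.061 ± 0.06, adjusted p = 0.69), were not called. The share of this list called higher was 8.7%, beside 2.3% of all genes. Fatty acid oxidation and PPAR-alpha targets had 4 of 38 higher and 1 lower (13.2% called, beside 4.81% of all genes), with a median of 0.20. Cpt1a, which admits fatty acids to mitochondria, rose from 250.1 and 248 to 364 and 403, the dehydrogenase Acads rose (0.44), and Cyp4a12a, a fatty acid hydroxylase, fell from 882 and 889.9 to 625 and 646. Creb3l3 and Slc25a47 were the other 2 that rose. Of 18 genes of lipid droplets and lipases, G0s2, an inhibitor of the lipase ATGL, fell by 0.87 ± 0.08 (adjusted p = 0.00058), from 1904 and 1998 to 996 and 1123, Hilpda, which inhibits the same lipase, fell, and the lysosomal lipase Lipa rose by 0.59 ± 0.095.

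The called genes of cholesterol and fatty acid synthesis went in both directions. Of 19 sterol synthesis genes 4 fell and 1 rose (26.3% called, beside 4.81% of all genes). Fdps read 5949 and 6014 without ethanol and 4262 and 4104 with it, and fell by 0.51 ± 0.07, Lss fell by 0.56 ± 0.096, and Nsdhl (-0.44) and Msmo1 (-0.30) fell too, whereas Dhcr7, which makes the last step, rose from 784 and 919.6 to 1308 and 1421. In lipogenesis, malic enzyme Me1, a source of NADPH, fell from 3235 and 3268 to 1992 and 1993, Thrsp, which promotes fat synthesis, rose from 1035 and 1087 to 1577 and 1635, Insig2, which restrains it, rose (0.33), and 26 of 29 were not called. The Insig2 rise holds for its brightest probe set alone. Its other tested probe sets had -0.12 and -0.21 (adjusted p = 0.53 for each). Apoa5 was the 1 called gene of 22 apolipoprotein and lipoprotein assembly genes. Apoe (0.0046 ± 0.073) and Apoa1 (0.12 ± 0.072) were not called, at intensities of 13840 or more on all 4 arrays.

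Bile acid and drug handling genes were called more often upward. Abcb11, the export pump for bile salts, read 407 and 412 without ethanol and 687 and 707 with it, and rose by 0.74 ± 0.1 (adjusted p = 0.0038). With Slco2b1 and the uptake carrier Slco1b2 (0.48) it made 3 of 30 tested bile acid genes higher, while the side-chain oxidase Acox2 fell (-0.53). The median of this list was 0.18. Cyp2b10, the classical target of the nuclear receptor CAR, read 1576 and 1526 without ethanol and 3480 and 3102 with it on its brightest probe set, and its 3 probe sets rose by 1.07, 1.10 and 1.25. Cyp1a2, the pericentral target of the aryl hydrocarbon receptor, rose from 2767 and 2701 to 3765 and 3635, and Fmo5 (0.43) and Ugt2b35 (0.60) rose. Tiparp, another target of that receptor, fell (-0.49). Altogether 4 of 39 drug metabolism genes rose and 1 fell. The share called either way was 13.3% for bile acid genes and 12.8% for drug metabolism genes, beside 4.81% of all genes. With missing values kept in the normalisation, each of the 2 lists had 2 genes called higher and 1 lower. Abcb11, Slco2b1 and Cyp2b10 lasted through every omission.

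**Figure D3:**
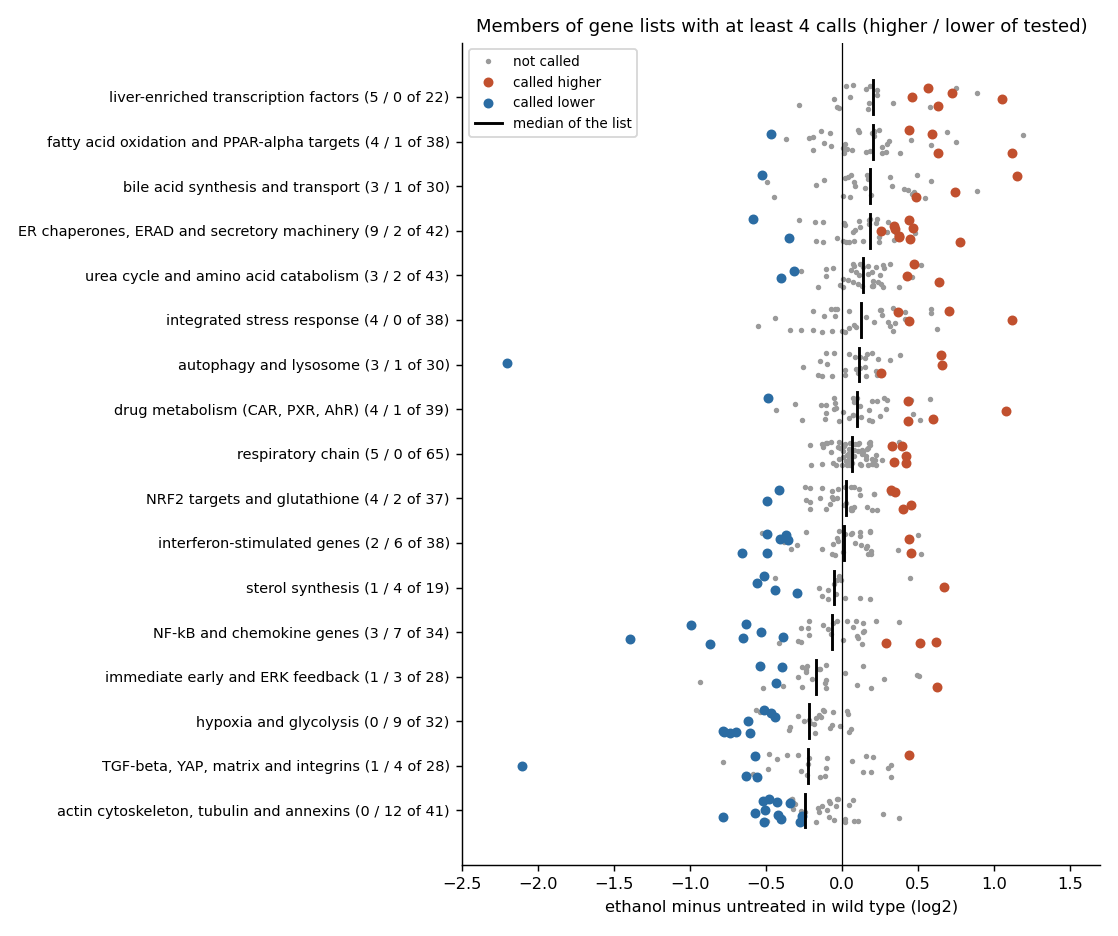
Ethanol minus untreated log2 difference in WT for each tested member of the gene lists with at least 4 calls, ordered by list median (black bar), with called members in red (higher) and blue (lower). Hypoxia and glycolysis (0 higher, 9 lower of 32) and the cytoskeleton list (0 and 12 of 41) lie to the left, and the liver-enriched transcription factors (5 and 0 of 22) to the right.

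The main enzymes of ethanol oxidation were not called. Adh1, the main alcohol dehydrogenase of liver, read 7341 and 7438 without ethanol and 8110 and 7942 with it, a difference of 0.12 ± 0.058 (adjusted p = 0.32). Cyp2e1 read 9823 and 10130 without ethanol and 9614 and 9512 with it, a difference of -0.061 ± 0.082 (adjusted p = 0.79). Aldh2, the mitochondrial aldehyde dehydrogenase, read 7270 and 6214 without ethanol and 8159 and 7017 with it, a difference of 0.17 ± 0.1 (adjusted p = 0.43), with the A array above the B array in both groups. None of the 3 was called in this fit. These are the levels of transcripts, not of enzyme activity. Of 20 tested members of the alcohol and aldehyde list 1 rose, Aldh1l1, which oxidises formyltetrahydrofolate, from 4554 and 4699 to 5831 and 5786, and the median was 0.13.

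Oxidative defence genes were mixed, with 4 of 37 tested NRF2 and glutathione genes higher and 2 lower (16.2% called, beside 4.81% of all genes). Sod1 rose from 5831 and 5848 to 7605 and 7244, and Gss, glutathione synthetase, rose by 0.45 ± 0.092 on its brightest probe set and was called on both. Srxn1 (0.40) and Osgin1 (0.32) also rose, while Hmox1, haem oxygenase 1, fell from 2530 and 2260 to 1849 and 1737, and Gstm2 fell (-0.49). None of these 6 lasted through every omission. In iron handling, Hamp2, a hepcidin paralogue, rose by 0.58 ± 0.073 (adjusted p = 0.0023), from 1742 and 1629 to 2628 and 2420, and 29 of 30 genes were not called. Hamp, which encodes hepcidin itself, had a difference of 0.17 ± 0.067 (adjusted p = 0.19) at intensities of 12926 to 14742. Probes for 2 such similar genes can share signal.

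Respiratory chain subunits had 5 of 65 higher (7.69%, beside 2.3% of all genes) and 0 lower. They were the complex I subunits Ndufa5 (0.42), Ndufc1 (0.42), Ndufa2 (0.40) and Ndufb7 (0.33) and the ATP synthase subunit Atp5e (0.34). Their sizes were all under 0.5, none lasted through every omission, and Ndufc1 was the 1 member called when arrays were scaled to a trimmed mean instead. In the tricarboxylic acid cycle and pyruvate entry, Idh3a fell from 795 and 819 to 508 and 556 and the pyruvate carrier Mpc1 fell from 2004 and 1838 to 1371 and 1313, and 21 of 23 genes were not called. Of 43 genes of the urea cycle and amino acid breakdown, 3 rose and 2 fell (11.6% called, beside 4.81% of all genes). The ornithine carrier Slc25a15 rose from 890 and 901 to 1369 and 1435, Hgd, which breaks down homogentisate, rose by 0.47 ± 0.075, and Agxt rose (0.42), whereas Glud1 (-0.32) and Gstz1 (-0.40) fell.

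In autophagy and lysosomes, Map1lc3a (4863 and 4595 to 7703 and 7228) and Gabarapl1 (1728 and 1905 to 2702 and 3033), which encode proteins of the autophagosome membrane, rose on 2 probe sets each. The protease gene Ctsd rose by 0.26 ± 0.063. Ctse, cathepsin E, read 62.6 and 77.1 without ethanol and 1.1 and 4 with it on its brightest probe set. A second Ctse probe set of like brightness had 79.7 and 31.9 without ethanol and 76.7 and 47.1 with it and was not called (0.18, adjusted p = 0.90). Which of the 2 counts as brightest depends on the offset and on the normalisation, so the Ctse decrease holds for 1 probe set alone. The tight junction gene Cldn4 fell from 2322 and 2469 to 1483 and 1376.

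The transcription factor at the centre of the study, Sp1, had a difference of 0.25 ± 0.11 (adjusted p = 0.26), at 483 and 469 without ethanol and 577 and 559.7 with it. A brighter Sp1 probe set, unusable on ethanol array B, went the other way. It read 870 and 671 without ethanol and 553 on ethanol array A. The Sp1 paralogue Sp3 fell by 0.89 ± 0.2 (adjusted p = 0.037), from 236 and 277 to 132 and 129.7. The Sp3 call did not last through every omission. Met, the receptor for hepatocyte growth factor, had a difference of -0.0095 ± 0.082 and Egfr one of -0.10 ± 0.13, neither called on its brightest probe set, and each had 1 dimmer probe set that was called lower. Hbegf, a ligand of EGFR, fell from 969 and 953 to 716 and 758. Among Kruppel-like factors Klf3 (-0.76) and Klf6 (-0.49) fell and 11 of 13 were not called. A brighter Klf3 probe set without a usable value on ethanol array B read 874 and 803 without ethanol and 631 on ethanol array A.

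Of 29 tested apoptosis genes, Tnfrsf23 and Tnfrsf22, decoy receptors for TRAIL, and Casp8 fell, with changes of -1.27, -0.53 and -0.64, and 0 rose. The p53 targets Gadd45a, a growth arrest gene, and Trp53inp1 rose and Plk2 fell, out of 23. No gene was called by limma among 33 of the cell cycle and DNA replication, 42 cytosolic ribosomal proteins, 24 of ribosome biogenesis, 23 of the methionine cycle and 23 histone acetylation enzymes, where list medians lay between -0.11 and 0.022. Pcna had -0.29 ± 0.076 (adjusted p = 0.06) and Rpl38 0.053 ± 0.056 (adjusted p = 0.72). Of 14 pericentral genes Cyp1a2 rose (7.14%), of 15 periportal genes G6pc rose (6.67%), and 0 of either fell. Of all genes 2.3% were called higher. Of the clock genes Bhlhe40 fell (-0.35) and 16 of 17 were not called. In the list of glucocorticoid and cAMP targets, Noct, which encodes nocturnin, fell (-0.41) and 15 of 16 were not called.

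The choice of probe set had a large bearing on the number of decreases. Over all 19814 probe sets 1105 were called (5.58%), of which 330 rose (1.67%) and 775 fell (3.91%), so that decreases were 70.1% of the calls, against 52.2% for the brightest probe sets. The 7161 other probe sets of named genes gave 63 increases and 448 decreases. For 380 of those 448 (84.8%) the brightest probe set of the same gene was not called, and for 12 it was called higher. The median difference of the 448 was -0.79, and that of the brightest probe sets of their genes was -0.12. Of 178 changes of at least 2-fold, 125 were decreases on such dimmer probe sets.

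Signal near the 5′ end of control transcripts was lower with ethanol relative to the 3′ end, where labelling starts. The 3′ to 5′ ratio of Pcx, pyruvate carboxylase, was 10.02 and 16.8 without ethanol and 26.7 and 44.5 with it. For Gapdh it was 0.831 and 0.821 against 0.977 and 0.928, and for Actb 1.33 and 1.25 against 1.62 and 1.48. All 3 ratios were higher on both ethanol arrays, while that of Tfrc, 5.17 and 4 against 3.33 and 6.33, overlapped. The part of these ratios in the decreases on dimmer probe sets was not tested.

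Within 12 genes, probe sets were called in opposite directions. Stom, stomatin, a membrane scaffold protein, read 1174 and 1218 without ethanol and 1450 and 1650 with it on its brightest probe set, a rise of 0.37 ± 0.086, and 207 and 206 without ethanol and 66.3 and 78 with it on another, a change of -1.34 ± 0.16 (adjusted p = 0.0019). Mapk14, the stress kinase p38-alpha, rose by 0.39 ± 0.086 on the brightest and had 86.4 and 88.7 without ethanol and 27.9 and 30.6 with it on a probe set that fell by 1.19 ± 0.21 (adjusted p = 0.011). Rgs16, a regulator of G protein signalling, rose by 0.67 ± 0.098 on the brightest and fell by 0.81 ± 0.18 (adjusted p = 0.034) on a dimmer one. In each case the fall was on a dimmer probe set. In Shmt2, a mitochondrial serine enzyme of one-carbon metabolism, the brightest probe set was not called, at -0.34 ± 0.095 (adjusted p = 0.074), the next brightest fell by 0.64 ± 0.069 (adjusted p = 0.0012) and a dim one rose by 1.03 ± 0.23 (adjusted p = 0.034). Pex6, Hacd3, Nat8f2, Ptp4a2, Rcan1, P2rx4, Faf1 and Ccny were the others.

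Of the 517 called genes 281 had several tested probe sets. In 66 of them another probe set was called the same way, in 10 one was called the opposite way (Pex6 is in both classes), and in 206 no other was called. Cnnm4, a magnesium transporter, is of the last kind. It fell by 1.63 ± 0.18 on the brightest, from 251 and 238 to 72.5 and 64.3, and its other 2 probe sets had differences of 0.36 and 0.040 that were not called. The other 236 called genes had a single tested probe set, so that no second reading was at hand.

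**Figure D4:**
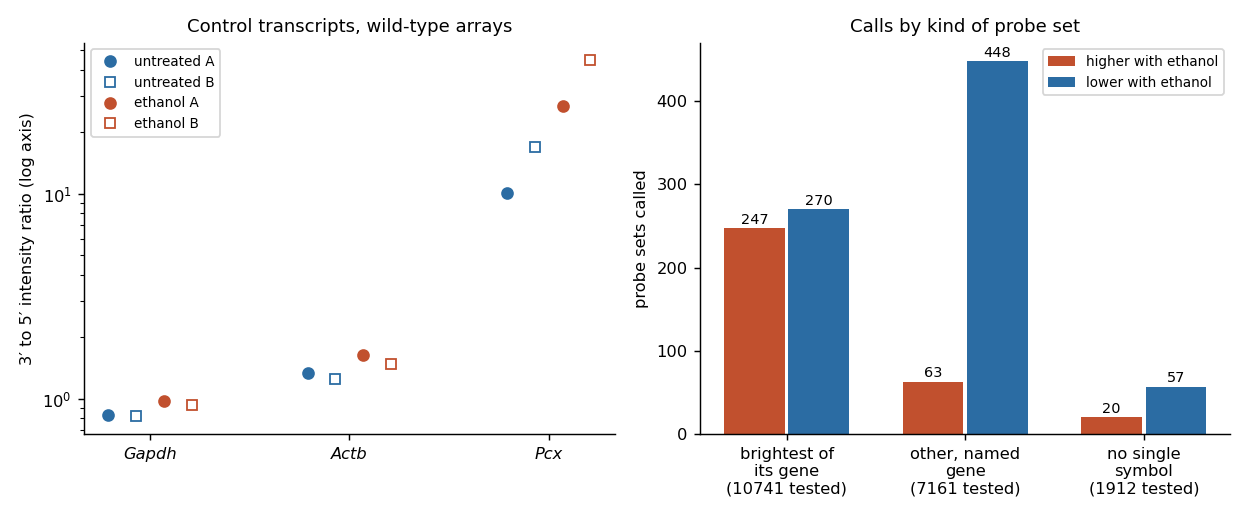
Left, 3′ to 5′ intensity ratio (log axis) of 3 control transcripts on each WT array, with the Pcx ratio of 26.7 and 44.5 on the ethanol arrays above 10.02 and 16.8 on the untreated ones. Right, number of probe sets called higher and lower with ethanol, with near-equal bars for the brightest probe sets (247 and 270) and unequal ones for the other probe sets of named genes (63 and 448).

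Hepatocytes lacking transglutaminase 2 mostly moved the same way for the genes called in WT. Of the 247 genes that rose in WT, 213 (86.2%) were higher with ethanol in KO and 150 were called higher there. Of the 270 that fell, 201 (74.4%) were lower in KO and 127 were called lower. Over all tested genes 59.6% had the same sign in both genotypes and 24.1% were called in KO. The WT and KO comparisons share no arrays, though they share the estimate of the spread. The difference between the 2 ethanol effects was called for 539 of the 10741 genes (5.02%), for 31 of the genes higher in WT and for 74 of those lower in WT. In 64 of those 74 the WT effect was the larger in size, as choosing genes called in WT favours, and over all 539 it was the larger in 112. This comparison depends on the KO arrays used, with 1061 probe sets (5.35%) called with all arrays, 4380 without ethanol KO array B and 199 without untreated KO array A. The treatment text of ethanol KO array B also reads as untreated, and that array correlated at 0.973 and 0.9725 with the untreated KO arrays and at 0.967 with ethanol KO array A. The 3′ to 5′ ratio of Pcx was 10.6 and 8.69 without ethanol and 4.91 and 5.45 with it in KO, opposite to WT, and that of Actb was 1.25 and 1.24 against 1.23 and 1.15. The part of the KO arrays' standing and of these ratios in the differences between genotypes was not tested.

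Several of the largest WT decreases were smaller in KO. Cyp26a1 fell by 2.30 ± 0.11 in WT and had -0.76 ± 0.11 in KO, a difference between the effects of -1.53 ± 0.15 (adjusted p = 0.0018). Ivl had -3.02 ± 0.1 and -1.31 ± 0.1, a difference of -1.70 ± 0.14 (adjusted p = 0.0014). Lmcd1 had -1.32 ± 0.16 and 0.14 ± 0.16, a difference of -1.46 ± 0.22 (adjusted p = 0.0082), and Lgals1 -0.79 ± 0.083 and 0.019 ± 0.083, a difference of -0.80 ± 0.12 (adjusted p = 0.0071). The first 2 genes were called lower in both genotypes, and Lmcd1 (adjusted p = 0.57) and Lgals1 (adjusted p = 0.89) were not called in KO. Other genes were called in opposite directions in the 2 genotypes. Sephs2, a selenoprotein that makes selenophosphate, rose by 0.79 ± 0.093 in WT and had -0.65 ± 0.093 in KO, Arpc4, a subunit of the actin-nucleating Arp2/3 complex, fell by 0.55 ± 0.078 and had 0.40 ± 0.078, and Prep, a prolyl peptidase, fell by 0.48 ± 0.086 and had 0.63 ± 0.086. The Sephs2 rise in WT holds for its brightest probe set alone. Other Sephs2 probe sets of similar brightness had 0.20 (adjusted p = 0.27) and -0.38 (adjusted p = 0.10) in WT.

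Some effects were larger in KO, with a called difference. Slc25a47 rose by 1.12 ± 0.088 in WT and had 2.20 ± 0.088 in KO, Apoa5 had 0.95 ± 0.072 and 1.82 ± 0.072, and Osgin1, an oxidative stress-induced growth inhibitor, had 0.32 ± 0.079 and 1.56 ± 0.079. For others the 2 effects lay close together. Thbs1 had -2.11 ± 0.14 in WT and -2.14 ± 0.14 in KO (adjusted p of the difference = 0.94), Ddit3 1.12 ± 0.15 and 1.01 ± 0.15 (0.81), Cebpa 1.05 ± 0.18 and 1.05 ± 0.18 (0.997) and Hilpda -0.78 ± 0.088 and -0.82 ± 0.088 (0.89). A difference that misses the threshold does not show that the effects were equal, and its SE was 0.12 to 0.25 for these 4 genes.

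**Figure D5:**
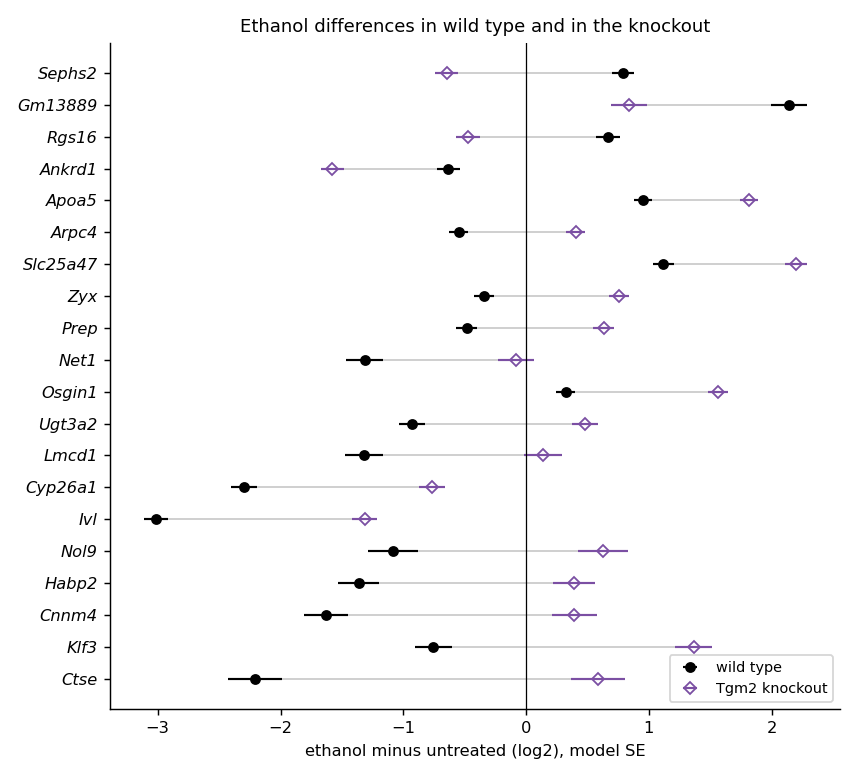
Ethanol minus untreated log2 difference, with the model's SE as bars, in WT (filled circles) and Tgm2 knockout (open diamonds) for the 20 described genes with the largest called difference between the 2 effects. On the probe set used for each gene, Klf3, at -0.76 in WT and 1.36 in KO, and Sephs2, at 0.79 and -0.65, lie on opposite sides of 0. Ivl lies further left in WT than in KO.

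The unusable stretch of ethanol array B took 877 genes out of the comparison altogether. Among probe sets bright enough to be tested had they been complete, those of 678 genes were the brightest of their gene and lacked a value there, and 312 of these genes had no other usable probe set. On the A arrays alone, 9 of the 678 were at least 2-fold higher with ethanol and 5 at least 2-fold lower, values without a replicate. Nol9, a kinase of ribosomal RNA processing, shows what this can do to a gene. It fell by 1.08 ± 0.21 on the probe set used here, from 172 and 191 to 67.3 and 88, but its brightest probe set, unusable on ethanol array B, read 372 and 389 without ethanol and 391 on ethanol array A. Lhfpl2, a tetraspan membrane protein, rose by 1.51 ± 0.29 from 18.3 and 33.5 to 88 and 116, and a brighter probe set with the same gap read 200 and 136 without ethanol and 198 on ethanol array A.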

How the data were processed

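The 8 arrays hold total RNA, extracted with silica columns and labelled with biotin during transcription of RNA in vitro, per the labels' protocols. The deposited values are linear intensities, 1 per probe set, for 45101 probe sets of which 64 are controls. Which software summarised and scaled them, and a genome build, is not given in the sources used here. Groups follow the sample titles. Values of WT ethanol array B under 0.01 or impossibly large were set missing, which left 39627 complete probe sets.

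Complete probe sets were quantile normalised over the 8 arrays and transformed as log2(intensity + 16). This offset understates the fold change of dim genes. The 50% with the highest mean (19814) were fitted with limma 3.58.1 in R 4.3.3, with 1 mean per group and a variance prior that follows intensity, with 4 residual and 5.43 prior degrees of freedom. Errors are model SEs, n = 2 arrays per group, and adjusted p-values are Benjamini-Hochberg over the tested probe sets. On simulated data with 200 changed probe sets, 16% of changes of 0.5, 65.5% of 1 and 96% of 2 on the log2 scale were called for ethanol in WT.

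Symbols came from the platform annotation and RefSeq's gene table. Of 45101 probe sets, 34958 had 1 symbol, 932 several and 9211 none. A gene was read from its usable probe set with the highest mean. Named genes are the 25 largest called changes each way with the same sign in A and B, up to 4 called members of each of 46 lists by smallest adjusted p (or up to 3 brightest members where under 2 were called), up to 10 genes with opposite calls, the 10 smallest adjusted p of the WT minus KO difference, genes of the study's subject and of the control ratios. Other genes named were picked after their values were seen. Members and lists were chosen with earlier results of these data known, and motifs were chosen after the values were seen. Promoters are RefSeq's, and the promoter set used had no entry for Thbs1, Gm13889, Hyou1, Ndrg1 and Sdr42e1. Alternatives changed the offset, filter, variance prior, normalisation, missing values, arrays fitted, replicate block, a spike-in ratio as a term and the treatment of the B ethanol arrays. A fit keeping probe sets with missing values, placed on the quantiles of complete ones, was added after seeing the data.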

Additional observations from a re-analysis of the deposited data

Results flagged for a closer look

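Of 151 genes named by the rule and called in WT, 40 had an ethanol effect that differed between WT and KO by limma's test of the difference itself (WT effect minus KO effect, log2 ± SE, adjusted over all tested probe sets), beside 5.02% of all tested genes. Some of them were named because of this very difference, so their presence here follows from the naming rule. All 151 were also chosen for being called in WT, and the difference uses the same WT arrays. That choice favours a share above that of all tested genes. Among all genes called in WT, the difference was called for 12.55% of those higher and 27.41% of those lower.

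Genes that fell in WT and had a difference below 0, so that the WT effect was the lower one, were the most frequent. Ctse, cathepsin E, had -2.79 ± 0.31 (adjusted p = 0.0025) on 1 of its 2 probe sets, where the WT ethanol values of 1.1 and 4 lie below the tested range, so that the size depends on the offset. Klf3 had -2.12 ± 0.21 (adjusted p = 0.0018), Cnnm4 -2.02 ± 0.25 (adjusted p = 0.0039), Habp2 -1.76 ± 0.24 (adjusted p = 0.0053), Nol9 -1.71 ± 0.29 (adjusted p = 0.013) and Ivl -1.70 ± 0.14 (adjusted p = 0.0014). Cyp26a1 had -1.53 ± 0.15 (adjusted p = 0.0018), Lmcd1 -1.46 ± 0.22 (adjusted p = 0.0082), Ugt3a2 -1.41 ± 0.15 (adjusted p = 0.0023) and Net1, an exchange factor for RhoA, -1.23 ± 0.21 (adjusted p = 0.013). Prep had -1.11 ± 0.12 (adjusted p = 0.0025), Zyx -1.10 ± 0.12 (adjusted p = 0.0022), Arpc4 -0.95 ± 0.11 (adjusted p = 0.0031) and Lgals1 -0.80 ± 0.12 (adjusted p = 0.0071), the last 3 being genes of the cytoskeleton or of secreted lectins.

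Differences of the same sign were found in genes of several lists. Ndufa4l2 had -0.85 ± 0.19 (adjusted p = 0.035), Gsdme -0.72 ± 0.15 (adjusted p = 0.026), Plk2 -0.71 ± 0.12 (adjusted p = 0.014) and Pkm -0.62 ± 0.13 (adjusted p = 0.028). The phosphatase Dusp5 had -0.69 ± 0.13 (adjusted p = 0.017), Junb -0.53 ± 0.11 (adjusted p = 0.026) and the urokinase receptor Plaur -0.56 ± 0.13 (adjusted p = 0.035). In lipid metabolism Cyp4a12a had -0.64 ± 0.1 (adjusted p = 0.0094), Me1 -0.59 ± 0.1 (adjusted p = 0.013) and Fdps -0.50 ± 0.099 (adjusted p = 0.022). The interferon-stimulated Oasl1 had -0.57 ± 0.093 (adjusted p = 0.01), the ER coat gene Sec24d -0.50 ± 0.11 (adjusted p = 0.034) and Hmox1 -0.47 ± 0.11 (adjusted p = 0.041).

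Genes that rose in WT and had the higher value in KO also had differences below 0. Osgin1 had -1.24 ± 0.11 (adjusted p = 0.0014), Slc25a47 -1.08 ± 0.12 (adjusted p = 0.0031), Apoa5 -0.87 ± 0.1 (adjusted p = 0.0031) and Thrsp -0.70 ± 0.11 (adjusted p = 0.011). Slc6a9 had -0.63 ± 0.13 (adjusted p = 0.026) and Aldh1l1 -0.55 ± 0.1 (adjusted p = 0.018).

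Differences above 0 were fewer. Sephs2 had 1.44 ± 0.13 (adjusted p = 0.0014), Gm13889 1.30 ± 0.21 (adjusted p = 0.0094), Rgs16 1.14 ± 0.14 (adjusted p = 0.0035) and Egr1 0.86 ± 0.1 (adjusted p = 0.0031), all of which rose in WT on their brightest probe set. Other tested probe sets of Sephs2 and Rgs16 disagreed, as given above. Hamp2 had 0.61 ± 0.1 (adjusted p = 0.013) and Lipa 0.56 ± 0.13 (adjusted p = 0.045), also genes that rose in WT. Ankrd1 had 0.94 ± 0.13 (adjusted p = 0.0056), since it fell in WT by less than in KO.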

How the results depend on the processing

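The main counts were 1105 probe sets and 517 genes for ethanol in WT and 1061 probe sets for the difference between the WT and KO effects, given here in this order. Leaving out each array in turn gave 284 to 2088, 117 to 1089 and 199 to 4380; an array left alone in its group is then assumed to vary like the other groups. Without a filter on dim probe sets the counts were 715, 305 and 663, and without a trend in the variance prior 286, 85 and 85. With 1 probe set per gene in the fit, 523 probe sets were called for ethanol and 617 for the difference. The 4 WT arrays alone gave 785 genes. Leaving out the B ethanol arrays gave 3261 probe sets for the difference, and counting them as untreated gave 0 in all 3 (752, 280 and 2401 at an unadjusted p under 0.05 by limma). The replicate block gave 1169, 546 and 1241 over all 8 arrays, and 4588 probe sets and 2514 genes over the 4 WT arrays alone, among them Aldh2 (adjusted p = 0.0073 by limma) and Adh1 (adjusted p = 0.040), which were not called otherwise. The labels do not say what a letter shares. Deviations from the group means correlated at 0.302 between same-letter arrays in WT, at 0.0265 in KO and at 0.204 between the ethanol groups. The other settings kept all 3 counts within 1.5 times, but keeping missing values moved the split for ethanol in WT to 88 higher and 893 lower (302 and 749 in the version added after seeing the data). The ethanol difference of Ctse turned to 0.25 with an offset of 1 and to 0.19 with normalisation and fit on the WT arrays, where its other probe set is the brightest. That of Nol9 turned to 0.035 and 0.037 with missing values kept in either way, where a brighter probe set comes in, and the respiratory chain median turned to -0.0065 in the first of these. That setting turned the medians of 12 of the 32 lists with a median above 0 to below 0, among them heat shock (-0.019), NRF2 (-0.032), interferon (-0.067), complement (-0.0066), tricarboxylic acid cycle (-0.068) and, lowest, apoptosis (-0.12). Over the single genes and alternatives, 3734 values kept their direction and their side of the threshold, 859 lost a call and 47 gained one. Signal near background limits genes such as Ptgs2 and Csf3, whose ethanol values lie under the tested range.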
